A study of Mus musculus with 6 samples.

Results

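The passage from juvenile to adult muscle was followed by setting the gastrocnemius, a fast muscle of the calf, of a mouse at postnatal day 28 (PN28) against that of a mouse at 22 weeks (adult). All genes of the deposited table were considered, with no choice by function or response, and the comparison uses 2 of the 6 libraries of the series. Of 23367 gene entries, 12859 reached at least 1 CPM (counts scaled by TMM-adjusted library totals) at PN28 or in the adult and were counted. Both mice were wild-type FVB males, each library came from the polyadenylated RNA of 1 whole muscle sample of 1 mouse, and no agent or transgene was used. The other libraries serve as context: E18.5 (pooled embryos of both sexes), PN2 (pooled male pups) and PN14 replicates 1 and 2 (1 male mouse each), all wild-type FVB. By the column names no libraries shared a sequencing lane, and lane, mouse and age cannot be told apart.

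With 1 library a side there is no replicate of either age, and a ratio of adult over PN28 is given without a p-value as a log2 ratio of CPM plus 0.1, scaled with trimmed mean of M values (TMM). The difference between the 2 PN14 mice served as a guide to noise. A gene is called past the guide when its size exceeded its own PN14 difference and the 99th percentile of that difference in genes of similar level, which lay between 2.02-fold and 2.82-fold over 10 level bins. A pooled-spread fit in edgeR, which lets PN28 and adult vary as PN14 did, gave adjusted p-values (Benjamini-Hochberg, over all 16882 genes tested), and the words rose and fell are kept for genes that it called. Levels are given as FPKM, which is per length and scaled to library size, in the order E18.5, PN2, PN14 replicate 1, PN14 replicate 2, PN28 and adult. In a whole muscle, fewer cells of a type and less RNA per cell cannot be told apart.

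Between the fourth week and adulthood a mouse muscle completes its growth. Satellite cells, the stem cells of muscle, divide and fuse to fibres in the juvenile and become quiescent, collagen production by fibroblasts slows, and sexual maturity is reached. The adult fibre of the gastrocnemius is dominated by fast myosin and by glycolytic enzymes, and its proteins are made and degraded in balance.

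At least 2-fold differences were seen in 373 genes that were higher in the adult (2.90% of those counted) and 938 that were lower (7.29%). Past the PN14 guide there were 227 higher (1.77%) and 603 lower (4.69%). The PN14 mice differed from each other by at least 2-fold in 354 of 12933 genes (2.74%). Scaling by library size alone moved the median of all genes from 0.021 to -0.113 on the log2 scale, and then 267 of 12525 genes were higher (2.13%) and 1107 were lower (8.84%). The pooled-spread fit called 27 genes higher (0.160%) and 61 lower (0.361%), and at an unadjusted p under 0.05 there were 1076 and 2015. All but 1 of the 88 called genes were also at least 2-fold different and past the guide (the exception, Col25a1, was under 1 CPM at both ages), while 10.5% of the 830 genes past the guide were called.

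Lower genes outnumbered higher genes in every level bin up to a mean of 65.6 CPM, most of all among weakly expressed genes, and not above that level. Among genes with at least 10 CPM, 232 were higher and 360 lower. In the lowest of the 10 level bins (mean of 0.524 to 2.13 CPM), 82 genes were at least 2-fold higher and 316 lower. In the highest bin (131 CPM and above), 50 were higher and 35 lower, and in the bin below it 38 were higher and 37 lower. At both ages 36.9% of the counts fell on the 20 most abundant genes, of which 19 were shared.

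**Figure D1:**
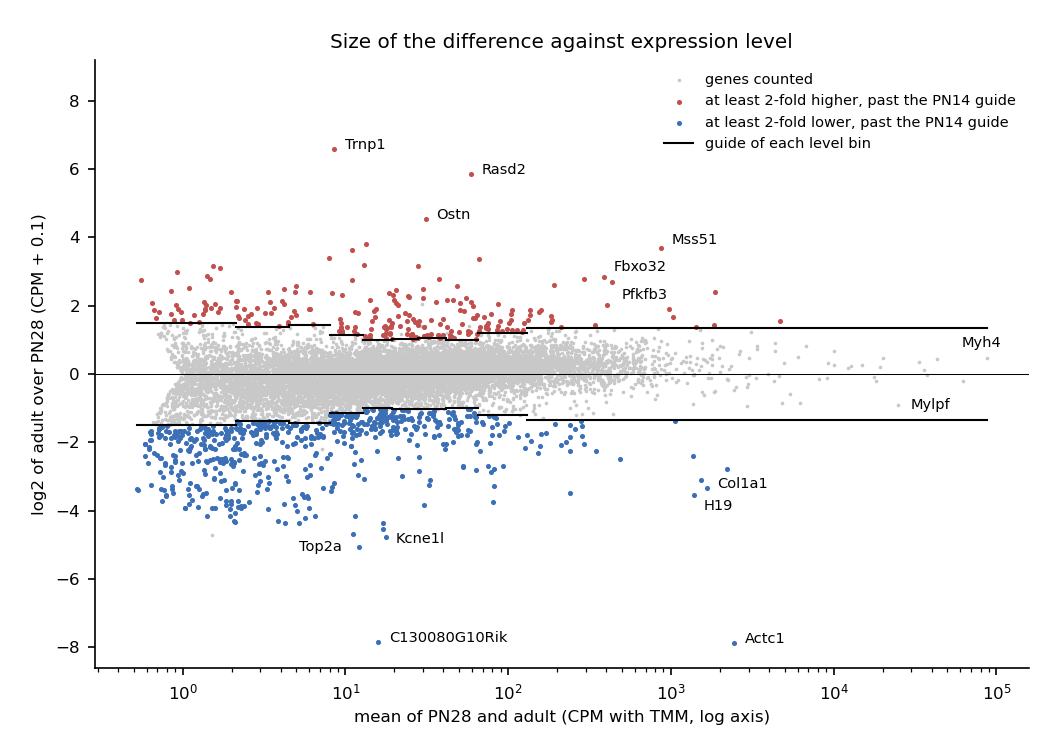
Each point is 1 of the 12859 genes counted, placed by its mean CPM over both ages (log axis) and by the log2 ratio of adult over PN28, with the guide from the PN14 pair as black steps. The 227 higher genes past the guide are red and the 603 lower ones blue, and Trnp1 and Rasd2 at the top and Actc1 and C130080G10Rik at the bottom lie far from the rest.

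The largest fall by the log2 ratio was that of Actc1, the cardiac alpha actin that embryonic and regenerating skeletal muscle also expresses. Its level was 5472, 2201, 2166, 3465, 2864 and 11.1 FPKM in the 6 libraries, so that it stayed high through PN28 and was low only in the adult. It fell 233-fold from PN28 (log2 ratio -7.87, SE of the fit 0.99, adjusted p = 0.0499), from 568939 to 2122 counts. Acta1, the actin of adult skeletal muscle fibres, stood at 36358 FPKM at PN28 and 28863 FPKM in the adult, a log2 ratio of -0.20. The coding sequences of these actins are very similar, so the split of reads between them is uncertain, above all for Actc1 in the adult.

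C130080G10Rik, an entry with no known role, fell by nearly the same log2 ratio. Its level was 10.4, 2.26, 8.98, 18.2, 13.5 and 0.02 FPKM, and its counts went from 3713 at PN28 to 4 in the adult (log2 ratio -7.84, adjusted p = 0.0187). Like Actc1 it was lower at PN2 than at E18.5 and higher in PN14 replicate 2 than in replicate 1, by 0.76 against 0.42 on the log2 scale. From PN2 to PN14 the courses differed, with a log2 ratio of 3.17 for C130080G10Rik and 0.99 for Actc1. The pair are neighbours in the GENCODE M1 annotation of mm9, where Actc1 lies on the minus strand at chr2:113873018-113879284 and C130080G10Rik on the plus strand at chr2:113880071-113890604. They point away from each other with 787 bases between them. Their closeness was looked up after the values were seen.

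The 250 bases before the RefSeq starts of Actc1 and Acta1 (GRCm38.p6) are shown because these actins share their function and differed in course. The CArG box, the site of serum response factor, was searched on both strands as CCWWWWWWGG, where W is A or T, and is in capitals. It was chosen for the search after the values were seen.
Actc1, chr2:114052876-114053125, minus strand: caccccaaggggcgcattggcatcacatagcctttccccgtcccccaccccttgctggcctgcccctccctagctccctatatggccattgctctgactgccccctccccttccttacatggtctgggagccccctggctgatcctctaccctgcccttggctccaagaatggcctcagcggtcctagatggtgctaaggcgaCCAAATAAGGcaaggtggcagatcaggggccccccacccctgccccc
Acta1, chr8:123894776-123895025, minus strand: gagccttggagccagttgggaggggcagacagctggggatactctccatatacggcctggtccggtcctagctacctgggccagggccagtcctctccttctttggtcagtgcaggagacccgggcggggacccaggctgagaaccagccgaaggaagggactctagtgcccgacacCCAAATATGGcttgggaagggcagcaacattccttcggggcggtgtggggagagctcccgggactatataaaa
Each window holds 1 exact match to this pattern, from 47 to 38 bases before the start of Actc1 and from 73 to 64 bases before that of Acta1. Stretches that depart from the pattern by a base were not searched for, so this is not a count of all such sites. The motif was found in 1.4% of the 27025 windows of the table, 1 for each gene. It was not found in the window of C130080G10Rik.

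Genes of DNA replication and mitosis were widely lower in the adult. Of 40 members, all of which were counted, 31 were at least 2-fold lower and 0 higher, with a median log2 ratio of -2.80 against 0.021 over all genes, and 30 were past the guide. Many members were weakly expressed, and the median was -1.88 with a pseudocount of 1 CPM and -1.30 among members with at least 10 CPM. The fit called 6 of them, Top2a, Cdk1, Uhrf1, Kif11, Mcm5 and Mcm6, named here because they were called. The members together held 0.03549% of the counts at PN28 (95% Wilson interval 0.03519% to 0.0358%, counting error only) and 0.01382% in the adult (0.01363% to 0.01402%).

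Top2a, the topoisomerase that untangles chromosomes, was at 37, 24.5, 2.99, 7.11, 3.27 and 0.1 FPKM. It had thus come down between PN2 and PN14, held at PN28, and fell again to the adult (log2 ratio -4.70, adjusted p = 0.0476). Cdk1, the kinase that drives entry into mitosis, was at 27.4, 17.7, 2.27, 5.51, 2.3 and 0.08 FPKM and fell likewise (-4.37, adjusted p = 0.0499). Uhrf1, which keeps DNA methylation through replication, went from 2.43 FPKM at PN28 to 0.1 in the adult (-4.23, adjusted p = 0.0197). The proliferation marker Mki67 had a ratio of -4.55 and the mitotic cyclin Ccnb2 one of -4.34, and neither was called (adjusted p = 0.0511 and 0.0534). PN14 replicate 2 exceeded replicate 1 by a median of 0.93 over the list, and for Top2a by 0.99.

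Not all members were lower. Aurka, a spindle kinase, had a log2 ratio of 0.96 (2.68 FPKM at PN28, 4.77 in the adult), and its activator Tpx2 one of 0.84 (2.25 and 3.71 FPKM). Rrm1, the large subunit of ribonucleotide reductase, was at 0.09. These were picked out after their values were seen, none reached 2-fold, and none was called.

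Promoters of the cell cycle genes are shown because the members moved together. The capitals mark CCAAT and the CHR element TTTGAA, on either strand, in the windows of Top2a, Cdk1 and Ccnb2, and TTTGGCGC or TTTCCCGC (E2F sites) in that of Mcm6. These motifs were chosen after the values were seen.
Top2a, chr11:99024190-99024439, minus strand: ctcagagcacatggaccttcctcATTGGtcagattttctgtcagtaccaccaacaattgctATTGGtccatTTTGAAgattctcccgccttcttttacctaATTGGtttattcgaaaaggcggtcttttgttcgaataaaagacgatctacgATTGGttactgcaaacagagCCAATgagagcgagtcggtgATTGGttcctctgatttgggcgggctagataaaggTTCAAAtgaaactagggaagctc
Cdk1, chr10:69352913-69353162, minus strand: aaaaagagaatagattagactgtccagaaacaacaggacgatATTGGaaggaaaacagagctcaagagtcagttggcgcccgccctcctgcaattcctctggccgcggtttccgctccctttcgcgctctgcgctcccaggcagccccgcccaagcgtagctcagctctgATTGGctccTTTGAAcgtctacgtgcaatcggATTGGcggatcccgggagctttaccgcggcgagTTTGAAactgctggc
Ccnb2, chr9:70421555-70421804, minus strand: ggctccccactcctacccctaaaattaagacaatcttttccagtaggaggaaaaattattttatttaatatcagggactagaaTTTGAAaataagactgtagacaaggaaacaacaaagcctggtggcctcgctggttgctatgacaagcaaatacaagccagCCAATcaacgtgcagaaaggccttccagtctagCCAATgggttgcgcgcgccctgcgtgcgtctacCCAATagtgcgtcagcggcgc
Mcm6, chr1:128359706-128359955, minus strand: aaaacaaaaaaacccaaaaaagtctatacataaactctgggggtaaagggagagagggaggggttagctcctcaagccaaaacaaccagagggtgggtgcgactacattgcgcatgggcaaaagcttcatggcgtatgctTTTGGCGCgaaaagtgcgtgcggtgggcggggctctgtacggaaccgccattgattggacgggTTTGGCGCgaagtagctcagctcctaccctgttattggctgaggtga
Windows were in the table for 34 of the 40 members. CCAAT was found in 31 of them (91.2%), against 36.2% of the 9591 counted genes with a window and 34.5% of all 27025. TTTGAA was found in 12 (35.3%, against 10.2% and 16.3%), and an E2F site in 4 (11.8%, against 2.6% and 1.4%). Among all genes at least 2-fold lower in the adult, 38.9% of 647 windows held CCAAT, which is close to the share of the genes counted. A window that holds the letters is not shown to be a site that is used.

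Beside the list counts that follow stand the shares over all genes counted, 7.29% lower and 2.90% higher. In the lowest level bin, 316 of 1286 genes were lower and 82 higher. Markers of the satellite cell were lower in the adult in 9 of 15 counted members, and 0 were higher (median -1.20, 7 past the guide). The median was under 2-fold with a pseudocount of 1 CPM (-0.88) and among members of at least 10 CPM (-0.64). The receptor Megf10, which keeps satellite cells dividing, was at 5.84, 4.82, 1.4, 3.08, 1.09 and 0.11 FPKM, a log2 ratio of -3.02. Fgfr4, Calcr and Msc followed at -1.81, -1.80 and -1.52. Calcr, the calcitonin receptor, is known from quiescent satellite cells, and it was at 0.34 FPKM at PN28 and 0.07 in the adult. The fit called 0 of the list, with adjusted p-values of 0.0534 for Megf10 and 0.0774 for Fgfr4.

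Of 14 genes of myoblast fusion and regeneration, 7 were lower and 0 were higher, all 7 past the guide (median -1.39, or -0.90 with a pseudocount of 1 CPM and -1.84 at 10 CPM). Besides Actc1 the fit called Tmem8c (myomaker), the membrane protein that myoblasts need for fusion. It was at 114, 104, 7.1, 16.4, 5.98 and 0.21 FPKM (log2 ratio -4.36, adjusted p = 0.0476). Myog, the transcription factor of differentiating myoblasts, had a ratio of -2.44, and Myh8, the perinatal myosin, one of -2.31. Myh8 had already gone from 4065 FPKM at PN2 to 8.25 and 31.1 FPKM in the PN14 mice, and was at 1.41 FPKM at PN28 and 0.25 in the adult. Actc1 thus stands apart from the developmental myosin in that it was still high at PN28.

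All 18 collagen chains of the list were at least 2-fold lower in the adult, every one past the guide, with log2 ratios from -3.34 to -1.34 (median -2.10). Their share of all counts was 1.033% at PN28 (1.031% to 1.034%) and 0.1414% in the adult (0.1408% to 0.142%). The fit called 2 of them, of which Col11a1 had the larger size (-2.83, adjusted p = 0.0335). Col1a1, a chain of the main collagen of muscle and tendon, was at 2046, 1494, 541, 563, 510 and 45.9 FPKM. Its ratio of -3.34 was the largest of the list, and the fit did not call it (adjusted p = 0.116). In FPKM, Col3a1 (-3.10) and Col1a2 (-2.78) also came down from PN2 to PN14, were near their PN14 levels at PN28 and were lowest in the adult. With TMM the earlier differences were smaller, with log2 ratios of PN14 over PN2 of -0.77 for Col1a1, -1.02 for Col3a1 and -0.74 for Col1a2. None of these 3 differed by more than 0.37 between the PN14 mice.

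Other genes of the matrix were lower in 16 of 28 members and higher in 0, all 16 past the guide (median -1.24). Fbn2, the fibrillin of developing microfibrils, fell (log2 ratio -3.91, adjusted p = 0.0367). It had been at 40.9 and 24.7 FPKM at E18.5 and PN2 and was at 0.32 FPKM at PN28 and 0.01 in the adult. The other called members were Loxl2, which crosslinks collagen, and Plod2, which hydroxylates its lysines for that purpose. They fell by 2.0 and 1.88 on the log2 scale (adjusted p = 0.0499 for each). Postn (periostin), Timp1 (an inhibitor of matrix proteases) and Eln (elastin) had ratios of -3.28, -2.91 and -2.69 and were not called. Sparc, a collagen-binding glycoprotein picked out after its values were seen, went from 805 to 140 FPKM.

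Among 16 genes of tendon, cartilage and bone, 6 were lower and 2 higher (median -0.34). The cartilage genes Col2a1 and Acan fell (-4.15 and -3.80, adjusted p = 0.012 and 0.0192), as did the tendon and corneal proteoglycan Kera and the tendon marker Tnmd (-2.04 and -1.81, adjusted p = 0.0398 and 0.0479). Col2a1 was at 60.2, 17, 4.31, 4.73, 3.43 and 0.17 FPKM, and Acan at 0.23 FPKM at PN28 and 0.01 in the adult. How much tendon or cartilage was dissected with each muscle is not known. Spp1 (osteopontin) and Col9a1 were the higher ones, at 1.79 and 1.57.

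Fibroblast markers other than the collagens moved less. Of the 12 listed, 5 were lower (median -0.62), but Col1a1 and Col3a1 are also in the collagen list. Without them, 3 of 10 were lower (Thy1, Lum and Cd34) and 0 higher, and 8 of 10 were below 0, with ratios from -1.77 to 0.76 and a median of -0.49. The summed level, which is weighted to the most abundant members, was 991 FPKM at PN28 and 1040 FPKM in the adult, although most members were below 0. None of the 10 was at 0. The part of fibroblast number in the collagen values was not tested.

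The imprinted growth genes, expressed from 1 parental allele and known for their decline after birth, were lower in 11 of 15 counted members and higher in 0 (median -1.86, 10 past the guide). Mest was at 733, 424, 22.6, 71.9, 17.8 and 1.12 FPKM, a log2 ratio of -3.85. The noncoding RNA H19 had 7578, 8279, 1981, 2694, 777 and 60.4 FPKM (-3.55), and was among the 10 genes with the largest loss in CPM. Dlk1, a ligand-like inhibitor of adipocyte formation, and Plagl1, a zinc finger factor, stood at -3.44 and -2.96. The fit called 0 of them (adjusted p = 0.0783 for Mest and 0.182 for H19).

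The PN14 mice differed strongly in these genes. Replicate 2 exceeded replicate 1 by a median of 0.86 over the list, and by 2.76 for Meg3 and 1.85 for Igf2, whose ratios of adult over PN28 were -2.88 and -2.71. In mm9, Dlk1 (chr12:110691033-110701546) lies 77665 bases from Meg3 (chr12:110779211-110809936), and Rian (chr12:110842155-110899919) lies 32219 bases beyond, all on the plus strand. Rian, a noncoding RNA of the same cluster, had a ratio of -3.75 and a PN14 difference of 2.78. H19 (chr7:149761434-149764048) and Igf2 (chr7:149836673-149852721) are 72625 bases apart. Zdbf2, an imprinted zinc finger gene outside the list, was at 32.4, 36.4, 1.12, 2.9, 0.65 and 0.04 FPKM (-3.60).

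**Figure D2:**
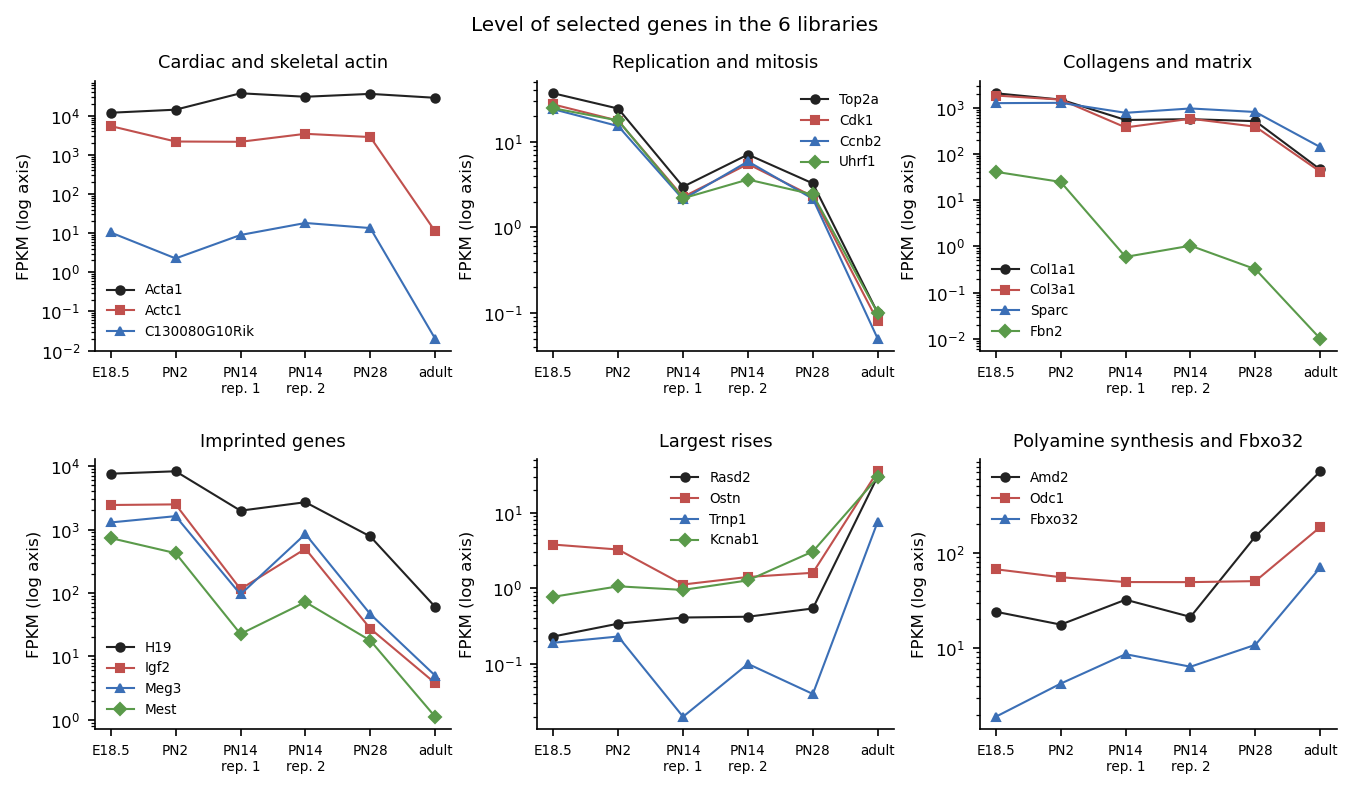
FPKM (log axis) of selected genes in each of the 6 libraries, in 6 panels by role, with 1 point for each library. Actc1 stays high and Rasd2 low up to PN28, and both depart from this in the adult. Collagens, cell cycle and imprinted genes come down by PN14 and again in the adult, cell cycle and imprinted genes with PN14 replicate 2 above replicate 1.

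Of the 13 counted genes of the insulin-like growth factor axis, 3 were lower and 1 higher (median -0.13). Igf1, the growth factor, went from 9.95 to 2.96 FPKM (log2 ratio -1.67), and the binding proteins Igfbp7 and Igfbp3 stood at -1.29 and -1.13. Irs2, an adaptor of the insulin receptor, was higher at 1.66, but its PN14 difference was nearly as large (-1.54). Of 17 counted Notch genes, 3 were lower (Dlk1, Hey1 and Nrarp) and 0 higher (median -0.55). These are 17.6% of the list, against 7.29% of all genes counted.

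On the other side, the largest rises were those of Trnp1, Rasd2 and Ostn. Trnp1, a chromatin-associated protein known from dividing neural progenitors, was at 0.19, 0.23, 0.02, 0.1, 0.04 and 7.59 FPKM. It rose 96.8-fold (log2 ratio 6.60, adjusted p = 0.0367) from 9 to 1736 counts, so the fold rests on few counts at PN28. Rasd2, a small GTP-binding protein known from the striatum, was at 0.23, 0.34, 0.41, 0.42, 0.54 and 30.2 FPKM. It rose 58.4-fold (5.87, SE of the fit 0.263, adjusted p = 0.0108), and no earlier library exceeded 0.54 FPKM. Ostn (osteocrin or musclin), a secreted peptide of muscle and bone that binds the clearance receptor of natriuretic peptides, was at 3.78, 3.25, 1.12, 1.41, 1.6 and 35.2 FPKM and rose 23.3-fold (4.54, SE 0.257, adjusted p = 0.012). Each of the 3 was highest in the adult, and the PN14 mice differed by at most 0.81 in them. In mm9 they lie at chr4:133047015-133054465 (Trnp1), chr8:77737843-77748012 (Rasd2) and chr16:27307575-27351298 (Ostn).

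Of the 15 largest rises, 11 were called. Kcnab1, a subunit of voltage-gated potassium channels, rose from 3.06 to 29.2 FPKM (3.38, adjusted p = 0.0187). Inmt, an N-methyltransferase (3.81, adjusted p = 0.0476), Actr3b, of the Arp2/3 actin nucleator (3.62, adjusted p = 0.0476), and Htra4, a serine protease (3.41, adjusted p = 0.0398), rose from 1.38, 0.74 and 0.47 FPKM at PN28. Vldlr, the receptor of very low density lipoprotein (2.79, adjusted p = 0.0367), Pla2g7, which inactivates platelet-activating factor (2.79, adjusted p = 0.0233), and Slc2a3, a glucose transporter (2.74, adjusted p = 0.0398), rose as well, as did 1700001O22Rik (3.19, adjusted p = 0.0367).

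The remaining 4 differed widely between the PN14 mice or missed the threshold. Mss51, a mitochondria-associated protein of muscle, was at 1.45, 2.4, 64.7, 8.64, 55.6 and 648 FPKM, with a log2 ratio of 3.68 (adjusted p = 0.243). Its PN14 mice differed by -3.15, nearly as much. Odf3l2 likewise had a ratio of 3.17 and a PN14 difference of -2.47. Pfkfb3, which makes the activator of phosphofructokinase, was at 4.72, 2.87, 11.6, 5.45, 18.1 and 107 FPKM (2.70, PN14 difference -1.36, adjusted p = 0.119). Fbxo32 (atrogin-1), a ubiquitin ligase of muscle protein breakdown, was at 1.9, 4.23, 8.61, 6.36, 10.8 and 70 FPKM (2.83, adjusted p = 0.0534).

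Of the 15 largest falls, 9 were called. Those not yet described are Kcne1l, an accessory subunit of potassium channels that went from 19.3 to 0.59 FPKM (-4.77, adjusted p = 0.0476), the collagen gene Col26a1 (-4.17, adjusted p = 0.012), Cthrc1, a secreted protein with a collagen-like helix (-3.93, adjusted p = 0.0367), and A930003A15Rik (-4.36, adjusted p = 0.0233). B230312C02Rik (-5.06) and AW551984 (-3.63) were not called, and their PN14 mice differed by -2.33 and 1.92. Of all genes, 0 had at most 3 counts at PN28 and 1 CPM or more in the adult. With the ages exchanged there were 4, and against a floor of 3 counts Gpr50 was at least 35.2-fold lower in the adult, Ticrr, of replication initiation, at least 35.8-fold and Depdc1a, a mitotic gene, at least 50.1-fold. The fourth, Pisd-ps1, is a pseudogene that was at 0 FPKM in PN14 replicate 1 and 1.67 in replicate 2.

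Polyamine metabolism had 4 of 12 counted genes higher and 0 lower, 3 of them past the guide, with a median of -0.03. The higher ones are on the synthetic side or recycle its products. Odc1, ornithine decarboxylase, which makes putrescine, was at 67, 55.3, 49.2, 49.1, 50.3 and 186 FPKM. In FPKM it was near level from PN2 to PN28, and it was higher in the adult (log2 ratio 2.03). FPKM leaves out the TMM factors, which were 1.45 at PN2 and 0.785 at PN28, so the level course depends on the scaling. The S-adenosylmethionine decarboxylase genes Amd2 and Amd1, which supply the aminopropyl group of spermidine, stood at 2.41 and 1.87. Amd2 went from 148 to 715 FPKM, after 32.1 and 21.2 FPKM in the PN14 mice. Smox, which oxidizes spermine back to spermidine, was at 1.25. The Amd genes are near-identical copies on chromosome 10, so the split between them is uncertain, and the fit called 0 of the list.

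Of the circadian genes, all 5 counted of the phase of Arntl were above 0 (median 0.42), and its single members are not reported here. Of the phase of Dbp, 3 of 13 were higher and 0 lower (median 0.57, 2 past the guide, 0 called), Gm129 at 2.39, the repressor Nr1d1 at 1.49 and Bhlhe40 at 1.03, of which Bhlhe40 was under 2-fold with library-size scaling (0.89). Over the Dbp list the PN14 mice differed by a median of -0.69, which is larger in size than its median of 0.57. The hour of dissection is not given in the sources used here. In promoter windows, CACGTG (E-box) was found in 3 of 10 members against 8.5% of counted genes. TTANGTAA (D-box) was found in 1, against 1.2%, and NNAGGTCA, searched for the RORE, in 2, against 10.3%. N stands for any base, so the last search was in effect for AGGTCA alone, and its matches are not shown to be ROREs.

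Ubiquitin ligases and FoxO targets showed no common shift (2 higher and 1 lower of 22, median 0.22). Besides Fbxo32, Klf15, a glucocorticoid-responsive factor, was higher at 1.15, and Foxo6 lower at -1.36. In glycolysis, Pfkfb3 alone of 18 genes reached 2-fold (median 0.25, or 0.11 with library-size scaling). The PN14 mice differed by a median of -0.43 over this list. Over the glycogen list they differed by a median of -0.48, about as much as its median of 0.50 (0.36 with library-size scaling). In glycogen metabolism, 13 of 16 members were above 0 (median 0.50), and the 1 past 2-fold was Gys2, the glycogen synthase of liver, at 0.01, 0.01, 5.91, 3.69, 2.8 and 0.15 FPKM (log2 ratio -3.85, adjusted p = 0.0519). Of 16 counted myokines, 3 were higher, 2 of them past the guide and 1 with library-size scaling, and 5 were lower (median -0.35), among them Ostn (4.54), the peptide Apln (-2.53) and the follistatin-like Fstl1 (-2.0).

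**Figure D3:**
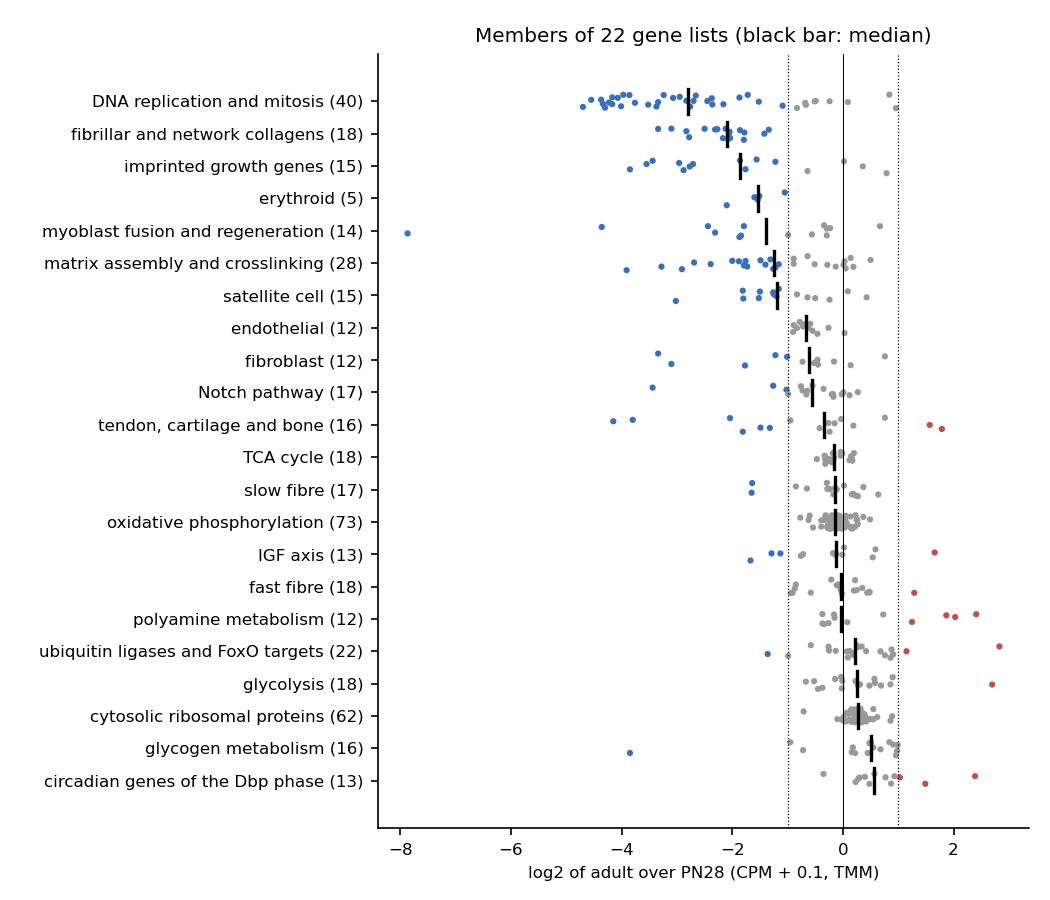
Each point is a counted member of a gene list, placed by its log2 ratio of adult over PN28, blue at or below -1 and red at or above 1, with the median as a black bar and the number of counted members in brackets. The lists of replication, collagens and imprinted genes lie well to the left, with medians of -2.80, -2.10 and -1.86, while oxidative phosphorylation and ribosomal proteins lie within 2-fold throughout.

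The contractile and mitochondrial genes differed little. Of 18 fast fibre genes 1 was higher (Mylk2, the myosin light chain kinase of skeletal muscle, at 1.29 with a PN14 difference of -1.38) and 0 lower, and 3 were at least 2-fold lower with library-size scaling. The list took 25.07% of the counts at PN28 (25.07% to 25.08%) and 24.9% in the adult (24.89% to 24.9%). Of 17 slow fibre genes 2 were lower, Myl6b and Casq2 (-1.65 and -1.64). Of 73 genes of oxidative phosphorylation and 18 of the TCA cycle, 0 reached 2-fold in either direction (medians -0.14 and -0.16). Below 0 were 55 and 13 of them, and the medians were -0.27 and -0.30 with library-size scaling. The PN14 mice differed by medians of -0.15 and -0.24 over these lists. The 62 cytosolic ribosomal proteins had 0 past 2-fold and 59 above 0 (median 0.27, or 0.13 with library-size scaling).

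Most of the genes with the largest gains in CPM were under 2-fold higher. Myh4, the fastest myosin heavy chain, gained 28784 CPM at a log2 ratio of 0.48, from 9492 to 12055 FPKM. Atp2a1, the calcium pump of the sarcoplasmic reticulum, gained 12984 CPM (0.44), and Tnnt3, the fast troponin T, 8034 CPM (0.35). The other gains were in Aldoa, Pygm, Cmya5, Ryr1, Gapdh, Tnnc2 and Pfkm, with ratios between 0.20 and 1.54. Only Cmya5, a protein of the sarcomere and the costamere, passed 2-fold among them, going from 159 to 420 FPKM. The PN14 mice differed by more than the ratio in Atp2a1 (-0.81), Tnnt3 (-0.60), Aldoa (-0.78), Ryr1 (-0.84), Gapdh (-0.35) and Tnnc2 (-0.36). They differed by less in Myh4 (-0.34), Pygm (-0.67), Cmya5 (-0.75) and Pfkm (-0.49). With library-size scaling the ratios of Myh4 and Tnnc2 were 0.34 and 0.06.

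Mylpf, the fast regulatory light chain, lost the most CPM, with 10722, 11142, 37263, 32367, 36286 and 17586 FPKM (log2 ratio -0.91). It reached 2-fold only with library-size scaling (-1.05) and was not called, although the adult was below the 3 preceding libraries. Acta1 (-0.20) and Casq1, the calcium store protein of fast fibres (-0.85), came next apart from Actc1, and Tpm2 (-0.85) and Pvalb (-0.21) followed. The PN14 mice differed by more than the ratio in Acta1 (-0.56) and Pvalb (-0.81), and by less in Mylpf (-0.46), Casq1 (-0.49) and Tpm2 (-0.25). Col1a1, Col1a2, Col3a1 and H19 were also among the 10 largest losses.

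**Figure D4:**
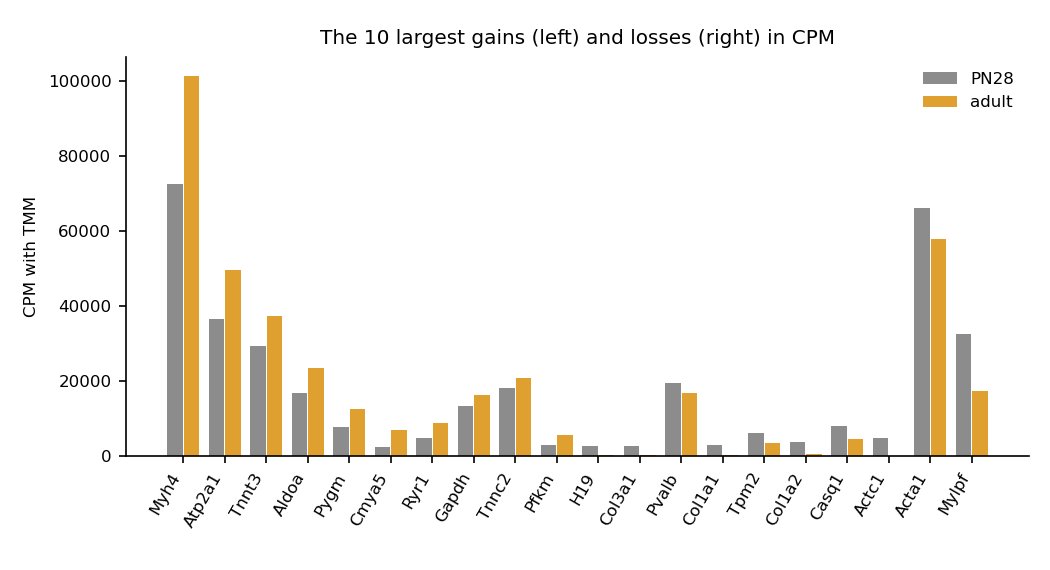
CPM with TMM at PN28 (grey) and in the adult (orange), 1 library each and so without error bars, for the 10 genes that gained and the 10 that lost the most CPM. Myh4 gained 28784 CPM, while Actc1, H19 and the collagens nearly vanish on this scale in the adult.

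The remaining function lists held few differences. Over all genes counted, 7.29% were lower and 2.90% higher (8.84% and 2.13% with library-size scaling). Counts of 1 to 3 in lists this small are described and not read as a shift of the list. With library-size scaling, 1 PGC-1 list member, 3 of the neuromuscular junction, 2 of glycogen metabolism and 6 interferon-induced genes were at least 2-fold lower. Of 20 genes of the triad, 1 was lower (Sypl2, at -1.37), of 17 of the neuromuscular junction 1 was lower (Chrng, the fetal receptor subunit, at -1.79) and 1 higher (Musk, its organizing kinase, at 1.05), and of 19 ion channels Kcne1l was lower and Kcnq5 higher (1.11). Musk and Kcnq5 were under 2-fold with library-size scaling (0.91 and 0.97), which also turned the sign of the triad median from 0.11 to -0.03. Of 26 genes of fatty acid oxidation 1 was lower (Fabp3, at -1.0), of 20 of lipid synthesis 2 were higher (Me1 and Srebf1, at 1.44 and 1.33), and of 13 of one-carbon and serine synthesis 2 were lower (Psat1 and Mthfd1l, at -1.85 and -1.21). Of 18 PGC-1, ERR and PPAR regulators and 16 of antigen presentation, 0 reached 2-fold, and 3 of 17 interferon-induced genes were lower (Ifi44, Isg15 and Igtp, from -1.59 to -1.01). Thyroid and steroid hormone lists had 1 gene each past 2-fold, Thrb (1.16, with a PN14 difference of -1.40) and Srd5a1 (-1.36). Of 15 immediate early genes, Myc and Btg2 were lower (-1.35 and -1.14) and Nr4a1 higher (1.06, with a PN14 difference of -2.12).

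Markers of other cells are given for the whole lists, beside 7.29% lower and 2.90% higher over all genes counted. The fibre markers had 0 of 10 past 2-fold (median 0.28, 1 lower with library-size scaling). Endothelial markers had 0 of 12 past 2-fold (2 lower with library-size scaling), but 11 were below 0 (median -0.66, or -0.80 with library-size scaling), and their summed level was 229 FPKM at PN28 and 131 FPKM in the adult. Pericyte and smooth muscle markers were lower in 2 of 11 (Cnn1 and Acta2, at -1.27 and -1.03), adipocyte markers in 0 of 12 (median -0.30), brown adipocyte markers in 1 of 5 (Cidea, at -1.88), Schwann cell markers in 0 of 13 (median 0.07) and macrophage markers in 2 of 11 (Mrc1 and Cx3cr1, at -1.41 and -1.20). All 5 counted erythroid markers were lower (median -1.54), with a summed level of 1256 FPKM at PN28 and 393 FPKM in the adult, and the PN14 mice differed by a median of -1.0. Of mast cell and neutrophil markers, 1 of 5 was higher (Mcpt4, at 1.19), and of lymphocyte and keratinocyte markers only 1 and 2 members were counted, with 0 past 2-fold. The globin genes are near-identical copies, and the part of blood or of any of these cells in other values was not tested.

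The earlier interval from PN2 to PN14, which shares no library with PN28 and adult, had the same direction for many of the genes lower in the adult. Of the 938 genes lower in the adult, 458 (48.8%) had been at least 2-fold lower at PN14 than at PN2, against 9.35% of all genes counted. Of the 373 higher genes, 111 (29.8%) had been at least 2-fold higher at PN14, against 15.4% of all. With library-size scaling the shares were 67.4% against 27.2% for the lower and 19.5% against 5.98% for the higher genes. Under that scaling, however, 20.6% of the 267 higher genes had been at least 2-fold lower at PN14, against 27.2% of all. Their median log2 ratio of PN14 over PN2 was -0.08, against -0.56 over all genes, and with TMM it was 0.44 against 0.08. With library-size scaling the higher genes thus had no common earlier direction of their own, but their median lay above that of all genes under both scalings. Seen from the earlier interval, 38.1% of the 1202 genes lower at PN14 than at PN2 were lower again in the adult and 3.24% were higher. The 1984 genes that had been higher at PN14 were higher again in 5.59% of cases and lower in 4.59%.

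**Figure D5:**
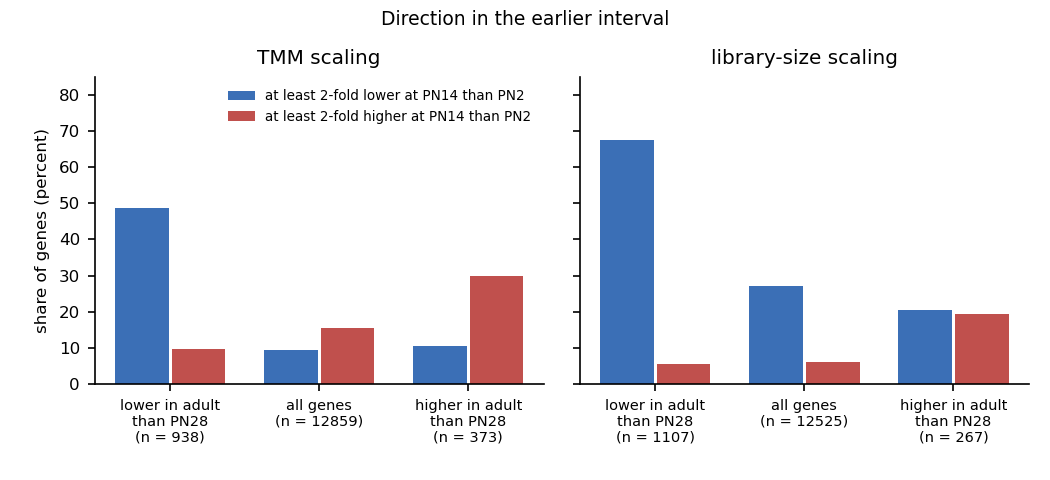
Share of genes (percent) that were at least 2-fold lower (blue) or higher (red) at PN14 than at PN2, among genes lower in the adult than at PN28, all genes counted, and genes higher in the adult, with TMM and with library-size scaling. Among the 938 lower genes with TMM the blue share is 48.8%, against 9.35% of all genes.

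The PN14 pair that served as the guide was not neutral for these genes. Genes lower in the adult were higher in PN14 replicate 2 than in replicate 1 by a median of 0.41 (95 of 938 at least 2-fold higher and 11 lower), and genes higher in the adult had a median of -0.31 (41 of 373 at least 2-fold lower and 3 higher). Over all genes the median was -0.01. The 2 mice of the same age thus differed in part along the same genes as PN28 and adult.

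Position and length were features that the choice of genes did not use. Of 12859 genes, 12039 had a single match in the mm9 annotation. On chromosome X, 63 of 416 genes were at least 2-fold lower in the adult (15.1%) and 7 higher (1.68%), against 7.16% and 2.96% on the other chromosomes together, where the highest share was 10.8%, on chromosome 1. Among genes with at least 10 CPM the shares lower were 9.69% of 258 on X and 4.07% of 8043 elsewhere. The median log2 ratio of X-linked genes was -0.08 against 0.02, so most were close to 0. Named after their values were seen, the lower X-linked genes included Kcne1l (-4.77), Itm2a (-2.26), the tendon gene Tnmd (-1.81), the basement membrane collagen Col4a5 (-1.78) and Timp1 (-2.91). Median length was 2621 bases for higher, 2992 for lower and 2784 for all genes counted.

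With 1 mouse at each age, a difference between these mice cannot be told apart from a difference between the ages. The spread used by the fit rests on the PN14 pair alone (1 residual degree of freedom), and when only genes averaging 1 CPM or more were tested, 4 were called higher and 9 lower. Those 13, which every alternative fit called, are Rasd2, Ostn, Kcnab1 and Pla2g7 among the rises and C130080G10Rik, Uhrf1, Col26a1, Col2a1, Acan, Adamts20, C1qtnf6, Cpz and Wisp1 among the falls.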

How the data were processed

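Polyadenylated RNA was sequenced in 6 gastrocnemius libraries. Reads were aligned by the authors to mm9 (TopHat2 2.0.5) and counted on RefSeq genes with RSEM, and the deposited table holds an expected count (estimated, not normalized) and an FPKM value (per gene length and library size, given by the authors to 2 decimals) for each gene and library. Between 125402932 and 157868359 counts fell on genes in each library, 148410967 at PN28 and 142685288 in the adult, where 3 counts are 0.0257 and 0.0295 CPM. No other column was used, and 27 entries with date-like symbols were kept.

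Counts were scaled with TMM over all libraries. Log2 ratios used CPM plus 0.1, among genes of at least 1 CPM at PN28 or in the adult. For the fit, counts were rounded and tested in R 4.3.3 with edgeR 4.0.16 (filterByExpr, quasi-likelihood test, 5 stages as groups), with calls made at a log2 size of at least 1 and an adjusted p below 0.05. The spread came from the PN14 pair (biological coefficient of variation 0.188, 1 residual and 4.86 prior degrees of freedom), so its p-values measure the difference between these libraries against that pair only. The SE of the fit is the size of its log2 ratio divided by the square root of the F statistic of the quasi-likelihood test, and is not a separate estimate. DESeq2 1.42.0 served as an alternative. Methods were tested on simulated data with known changes.

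Genes named are the 15 largest rises and falls past the guide with at least 10 CPM, the 10 largest gains and losses in CPM, up to 4 members of each list, genes at or under 3 counts at 1 age, and any said to be chosen after their values were seen. The 45 lists held 793 genes of the table, 734 of them counted, and the members and lists were chosen with earlier results of these data known. Lists were described by counts and medians without a test. Coordinates are from GENCODE M1 (mm9), promoter windows from a RefSeq table of GRCm38.p6, 1 window a gene. Python 3.11.15, numpy 2.4.6, pandas 2.3.3 and matplotlib 3.10.9 were used. Splicing was not analysed here. Some results are not reported here.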

Additional observations from a re-analysis of the deposited data

How the results depend on the processing

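Each age has 1 library, and 3 counts correspond to 0.0257 CPM at PN28 and 0.0295 CPM in the adult. Genes at least 2-fold higher numbered 232 and lower 360 at a floor of 10 CPM, and 624 were lower with a pseudocount of 1 CPM. Past the guide, 342 were higher with its 95th percentile and 262 lower at 10 CPM. The fit called 141 genes higher and 727 lower with library size alone, 31 and 95 with DESeq2's size factors, 169 and 639 with DESeq2's Wald test, 279 and 867 with edgeR's exact test, 184 and 651 without a filter, and 4 and 9 with a mean of at least 1 CPM. All 88 called genes were called in the same direction under the first 5 of these, and 13 under the last. The share of lower genes that had been lower at PN14 than at PN2 was 67.4% with library size alone and between 39.3% and 54.7% when either PN14 replicate was left out. Of the named genes, 0 of 49 changed sign under the scalings and pseudocounts tried. A pseudocount cannot turn a sign, and library-size scaling shifted these ratios by -0.35 to 0.22. The largest rises and falls were chosen for their size, so for them the unchanged sign says little. The list medians of replication, satellite cells and fusion moved with a pseudocount of 1 CPM (to -1.88, -0.88 and -0.90) and at 10 CPM (to -1.30, -0.64 and -1.84), whereas those of collagens were -2.09 and -2.10. Of the 45 list medians, 4 changed sign with library size alone (each at most 0.13 in size) and 5 of 43 at 10 CPM (at most 0.16). The cause of these shifts was not tested. No paired analysis was possible because PN28 and adult have 1 library each and share no pairing.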
